A study of Mus musculus with 16 samples.

Results

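A set of 10 genes of transforming growth factor beta (TGF-beta) and bone morphogenetic protein (BMP) signalling were followed across young and aged lung endothelium. They are the ligand gene Tgfb1, the receptor genes Tgfbr1, Acvrl1, Tgfbr2 and Bmpr2, the co-receptor genes Tgfbr3 and Eng, the inhibitory Smad genes Smad6 and Smad7, and the target gene Id1. The genes were chosen by name, with earlier results of these data known. All 10 of them are among the 43346 genes of the deposited table, each with a single row. RNA was sequenced from freshly sorted lung endothelial cells (ECs, the inner lining of vessels) in 16 libraries. Per the study's methods, all mice were Col1a1-GFP transgenic animals of the FVB strain, of both sexes, and the sorted cells carried CD31 (an endothelial surface protein) but lacked CD45 (leukocytes), EpCAM (epithelium) and the GFP reporter of the collagen gene. Bleomycin, a drug that injures the lung and leads to fibrosis, or PBS was given into the trachea about a month before the lungs were taken. The labels do not give the sex of the mouse behind a library or name the mice. Per the study, the RNA came from lungs that were also used for chromatin profiling, in which every point stood for its own mouse, and the libraries are taken here as separate mice.

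The 4 groups were Young Sham (PBS, 2 months old, n = 5, libraries 21 to 25), Young Bleo (bleomycin, 2 months old, n = 4, libraries 17 to 20), Aged Sham (PBS, 18 months old, n = 3, libraries 13 to 15) and Aged Bleo (bleomycin, 18 months old, n = 4, libraries 1, 2, 3 and 5). The Aged Bleo group thus differs from Young Sham in both age and injury, and Young Sham libraries enter 4 of the 6 comparisons below, including that of the young and aged responses. The library numbers are those of the sample titles and pair no libraries.

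Ligands of the TGF-beta family bind a pair of type II receptors, which then activate a pair of type I receptors, and these phosphorylate receptor-regulated Smads that act in the nucleus with Smad4. In ECs the type I receptor ALK1 (Acvrl1) with the type II receptor BMPR2 and the co-receptor endoglin (Eng) answers circulating BMP9 and BMP10 and turns on Id1, Smad6 and Smad7, whereas ALK5 (Tgfbr1) with TGFBR2 answers TGF-beta itself. Inherited loss of ALK1 or endoglin causes hereditary haemorrhagic telangiectasia, and inherited loss of BMPR2 causes pulmonary arterial hypertension.

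Depth lay between 20.9 and 71.0 mega-counts per library. The sorted cells carried the endothelial markers, since the summed normalized count of 9 endothelial genes (Pecam1, Cdh5, Tie1, Kdr, Emcn, Cldn5, Esam, Egfl7 and Erg) was 487949 or more in every library. It was lower after bleomycin without overlap, at 685636 to 797533 in Young Sham and 659442 to 695360 in Aged Sham against 514831 to 618724 in Young Bleo and 487949 to 622892 in Aged Bleo. Normalized counts are deposited read counts divided by the size factor of the library. The subtype makeup of the libraries was uneven. The sum of 7 aerocyte markers (Car4, Ednrb, Apln, Tbx2, Fibin, Prx and Emp2, genes of the capillary ECs that lie against the air sacs) was 551373 to 652740 in Young Sham and 484874 to 714647 in Aged Sham. It was 70026, 90908, 123808 and 349746 in Young Bleo libraries 17 to 20 and 67165, 116382, 476537 and 397057 in Aged Bleo libraries 1, 2, 3 and 5. The sum of 7 macrophage markers was 3214 to 5318 in Young Sham, 17734 to 53794 in Young Bleo, 7437 to 23012 in Aged Sham and 25258 to 172700 in Aged Bleo. The sum of 6 lymphatic markers was 32645 to 44459 in Young Sham, 70418 to 156392 in Young Bleo, 38381 to 44667 in Aged Sham and 41285 to 66413 in Aged Bleo. These values return beside the results that they move with, and in bulk samples fewer cells of a type cannot be told apart from less RNA per cell.

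The promoters of Smad6, Eng and Tgfbr2 are shown as examples. That of Smad6 holds a match to a Smad motif, and that of Eng holds a match to an ETS motif. That of Tgfbr2, a receptor of the TGF-beta branch, holds no match. Matches in the windows of Bmpr2 and Tgfbr1 are given after the sequences. RefSeq windows on GRCm38.p6 were matched for 6 of the 10 genes. They cover 250 bases before the start site and 50 bases from it on. No window was matched for Acvrl1, Tgfbr3, Smad7 or Id1, and the window of Bmpr2 starts from a site 879 bases inside the gene of the deposited table and is not shown. Each sequence below holds 200 bases before the start site and 10 bases from it on, 5′ to 3′ on the strand of the gene. Capitals mark a match to 1 of 3 motifs, which were searched on both strands and did not overlap each other in these windows. The motifs were GTCTAGAC, the palindromic Smad-binding element, GGCGCC, a GC-rich element of BMP-activated Smads, and GGAAGT, a core of sites for ETS factors such as ERG, which reads ACTTCC on the other strand.
Smad6, chr9:64022050-64022259, minus strand: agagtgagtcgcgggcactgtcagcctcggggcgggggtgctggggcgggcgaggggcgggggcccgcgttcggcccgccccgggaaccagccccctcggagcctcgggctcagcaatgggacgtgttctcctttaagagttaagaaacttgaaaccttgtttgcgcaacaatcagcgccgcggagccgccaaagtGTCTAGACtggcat
Eng, chr2:32646395-32646604, plus strand: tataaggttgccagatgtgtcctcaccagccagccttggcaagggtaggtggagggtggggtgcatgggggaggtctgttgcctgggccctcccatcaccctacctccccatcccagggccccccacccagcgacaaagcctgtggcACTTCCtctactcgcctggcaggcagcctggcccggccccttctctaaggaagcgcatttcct
Tgfbr2, chr9:116175354-116175563, minus strand: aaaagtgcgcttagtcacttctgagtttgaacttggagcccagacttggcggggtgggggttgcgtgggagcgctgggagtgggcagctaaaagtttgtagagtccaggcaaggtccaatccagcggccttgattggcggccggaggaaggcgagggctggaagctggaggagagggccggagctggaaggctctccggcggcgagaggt

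The Smad-binding palindrome of Smad6 spans the start site, from position -4 to 4 with the start site as 1, and 70 of 32851 windows of this length (0.213%) hold it. The ETS core of Eng lies at positions -53 to -48, and 23.8% of the windows hold that motif. The window of Tgfbr2 held none of the 3 motifs, which says only that these letters are not in this window. The GC-rich element was found in the windows of Bmpr2 (positions -105 to -100 from its RefSeq start site) and Tgfbr1 (positions -233 to -228), and 11.9% of all windows hold it. Another window of Tgfbr1, whose start site lies 32994 bases inside the gene, held the ETS core at positions -171 to -166. The 300-base windows held 31 CG pairs for Smad6, 15 for Tgfbr2 and 6 for Eng, against a median of 7 over all windows. A match is a description of the sequence, and binding was not measured here.

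Lung ECs held far more RNA of the type I receptor ALK1 (Acvrl1) than of the type I receptor ALK5 (Tgfbr1), whereas the mean of the type II receptor Tgfbr2 lay above that of Bmpr2 in every group. Levels of different genes are compared here only as FPKM, the deposited value per gene length and library total. In Young Sham the type I receptor Acvrl1 was the highest of the 10 genes at 319 ± 26.1 FPKM (SD, n = 5), and the type I receptor Tgfbr1 was the lowest at 0.848 ± 0.290 FPKM (SD, n = 5). Below Acvrl1 came Id1 at 245 ± 37.0, Eng at 166 ± 24.1 and Smad6 at 122 ± 18.2 FPKM, and the ranges of Acvrl1 and Id1 overlapped, as did those of Eng and Smad6. A lower tier held Tgfbr2 at 15.7 ± 3.82, Tgfb1 at 14.1 ± 1.88, Smad7 at 12.8 ± 2.31, Tgfbr3 at 9.47 ± 0.81 and Bmpr2 at 8.37 ± 1.31 FPKM, and each of these overlapped with the next. The steps from Id1 to Eng, from Smad6 to Tgfbr2 and from Bmpr2 to Tgfbr1 were the ones without overlap in Young Sham. Smad6 lay above Tgfbr2, and Tgfbr1 lay lowest, without overlap in all 4 groups.

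**Figure D1:**
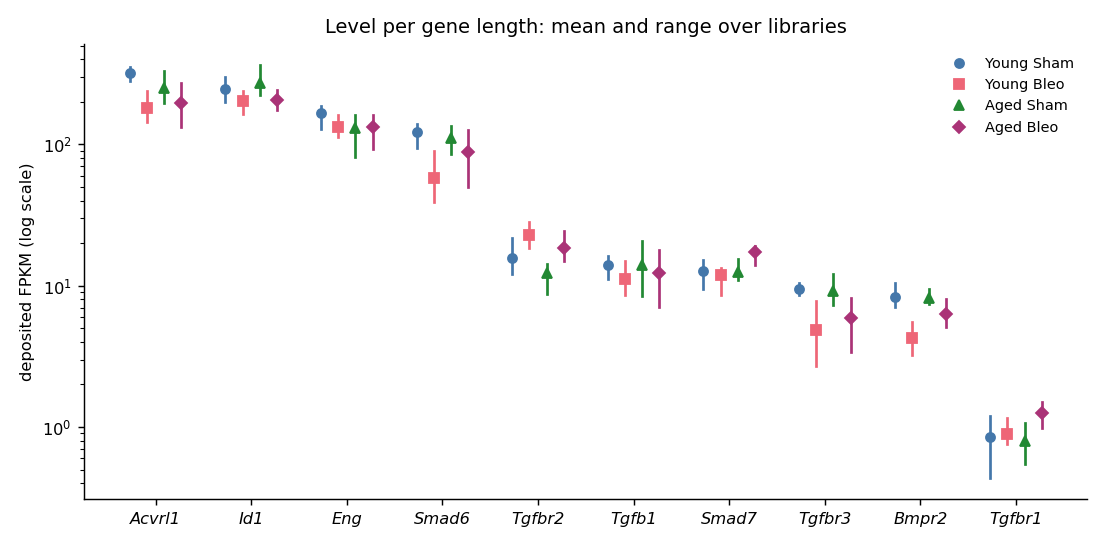
Deposited FPKM (log axis) of the 10 genes in the 4 groups, with the mean as a symbol and the lowest to highest library as a line. Acvrl1, Id1, Eng and Smad6 form an upper tier in every group, and Tgfbr1, at 0.799 to 1.25 FPKM on average, is lowest in every group.

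In Aged Sham the order of the means changed at the top, with Id1 at 273 ± 81.2 and Acvrl1 at 250 ± 69.7 FPKM (SD, n = 3), but the ranges overlapped. After bleomycin Id1 and Acvrl1 were also level within their spread, at 204 ± 39.1 and 180 ± 40.4 FPKM in Young Bleo (SD, n = 4) and at 206 ± 35.6 and 198 ± 62.6 FPKM in Aged Bleo (SD, n = 4).

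The first comparison was that of injured with uninjured young mice, Young Bleo against Young Sham. Aerocyte marker sums differed as well, at 70026 to 349746 against 551373 to 652740, and the part of cell makeup was not tested. The genes Acvrl1, Bmpr2, Tgfbr3 and Smad6, which encode the receptor ALK1, its type II partner, the TGF-beta co-receptor betaglycan and an inhibitor of BMP signalling, all fell. Acvrl1 fell by 44.9%, Tgfbr3 by 50.3%, Bmpr2 by 50.5% and Smad6 by 53.8%. A gene was called when its DESeq2 adjusted p was at most 0.05 and its absolute log2 fold change at least 0.5. Of the 10 genes 4 were called, all lower, while 13.9% of the 18515 genes tested were called in this comparison and 6.35% were called lower. In the same 4 genes every Young Bleo library lay below every Young Sham library, which held for 7.17% of all genes tested. The median log2 fold change of the 10 genes was -0.36, beside 0.01 over all genes tested. The 10 genes were chosen with earlier results of these data known, so these shares and medians describe them and test nothing. The quasi-likelihood test of edgeR called the same 4 genes.

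**Figure D2:**
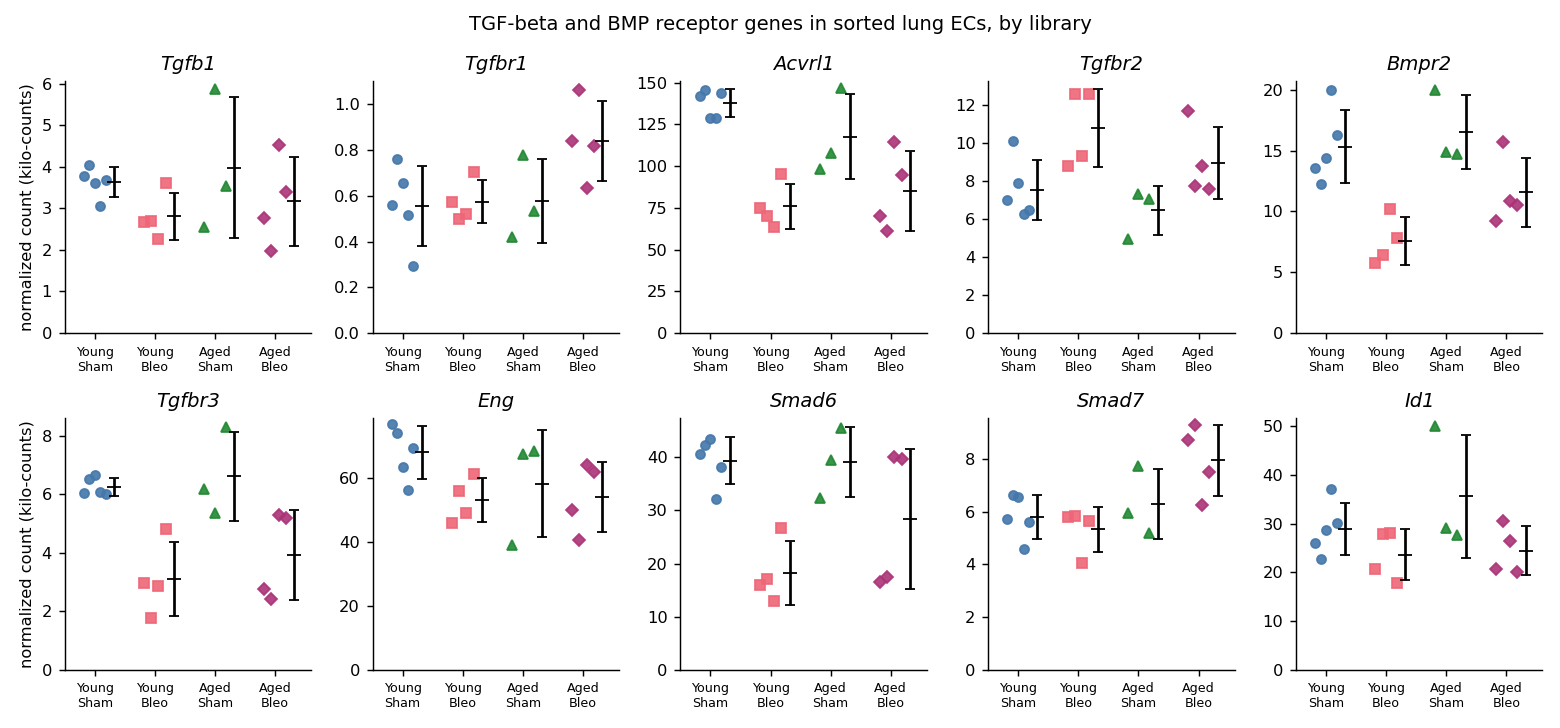
Normalized count (kilo-counts) of each of the 10 genes in every library (1 point each), with the mean and SD as a bar beside each group; every axis starts at 0. In Smad6, Tgfbr3, Acvrl1 and Bmpr2 all Young Bleo points lie below all Young Sham points, and in Smad6 the Aged Bleo points form a low pair (libraries 1 and 2) and a high pair (libraries 3 and 5).

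Acvrl1 (ENSMUSG00000000530, chromosome 15, 101128522 to 101145336, the ALK1 gene) had normalized counts of 142072, 145258, 128777, 128471 and 143689 in Young Sham and of 75153, 69996, 63290.5 and 94928 in Young Bleo. All 4 injured libraries were far below the sham libraries, and library 20 was the highest of them. The log2 fold change was -0.86 (SE 0.19, 95% interval -1.23 to -0.49, adjusted p = 0.00017). The other type I receptor, Tgfbr1 (ALK5; chromosome 4, 47353222 to 47414931), was not called, with counts of 560, 761, 654, 517 and 291 in Young Sham and 573, 497, 520 and 706 in Young Bleo. The groups overlapped throughout, and its log2 fold change was 0.05 (95% interval -0.47 to 0.56, adjusted p = 0.947).

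Of the type II receptors, Bmpr2 was called lower and Tgfbr2 was not called. Bmpr2 (ENSMUSG00000067336, chromosome 1, 59763400 to 59879014) had 13600.3, 12286, 14353, 19994 and 16312.5 normalized counts in Young Sham and 5779, 6445.5, 10234.5 and 7846 in Young Bleo. The groups did not overlap, with library 19 the nearest to sham, and the log2 fold change was -1.01 (SE 0.21, adjusted p = 6.05e-05). Tgfbr2 (chromosome 9, 116087698 to 116175363), the receptor that binds TGF-beta, had 7018, 10119, 7902, 6259 and 6462 counts in Young Sham and 8802, 12616, 9323 and 12589 in Young Bleo. Injured libraries were mostly higher, but Young Sham library 22 lay above 2 of them. Its log2 fold change was 0.52 (SE 0.20, 95% interval 0.13 to 0.91), and it was not called, at an adjusted p of 0.0516. That adjusted p ran from 0.00916 to 0.183 over 23 alternative settings and fell under 0.05 in 6 of them, such as without Young Sham library 22, where the log2 fold change was 0.65.

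Of the co-receptors, Tgfbr3 (ENSMUSG00000029287, chromosome 5, 107106570 to 107289629) had 6032, 6519, 6678, 6079 and 5996 normalized counts in Young Sham. It had 2979, 1779, 2873 and 4816 in Young Bleo. Libraries 17 to 19 were low and library 20 was between them and sham, and the log2 fold change was -1.01 (SE 0.28, adjusted p = 0.00392). Eng (chromosome 2, 32646595 to 32682669), whose product presents ligand to ALK1, had 76866, 73962, 63293.5, 56238 and 69228 counts in Young Sham against 45897, 55778, 48894 and 61262 in Young Bleo. The groups overlapped, and with a log2 fold change of -0.36 (95% interval -0.73 to 0.01, adjusted p = 0.201) it was not called. Eng overlaps the gene Fpgs, and the strand setting of the counting is not stated in the sources used here.

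Smad6 (ENSMUSG00000036867, chromosome 9, 63953076 to 64022059), whose product blocks BMP receptors, showed the lowest log2 fold change of the 10 genes. Its normalized counts were 40608, 42420.3, 43460.1, 32249.5 and 38162 in Young Sham and 15896, 17130.1, 12889 and 26791 in Young Bleo. Library 20 was again the highest of the injured libraries and still below all sham libraries. The log2 fold change was -1.12 (SE 0.28, 95% interval -1.66 to -0.57, adjusted p = 0.00125). Smad7, the inhibitor of both branches, had 5727, 6648, 6547, 4578.5 and 5602 counts in Young Sham and 5817, 5827, 4048 and 5634 in Young Bleo. The groups overlapped, library 19 was the low one in Young Bleo, and the log2 fold change was -0.13 (95% interval -0.47 to 0.21, adjusted p = 0.716), or -0.012 without library 19.

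The target gene Id1 (chromosome 2, 152736251 to 152737410), a transcriptional inhibitor that is read as a sign of BMP signalling, had 26058, 22681, 28644, 37227 and 30079 normalized counts in Young Sham and 20636, 27910.4, 28173 and 17824 in Young Bleo. The groups overlapped, with a log2 fold change of -0.29 (95% interval -0.72 to 0.14, adjusted p = 0.428), or -0.18 without Young Bleo library 20. The ligand gene Tgfb1 (chromosome 7, 25687002 to 25705077) had 3769.95, 4051, 3611, 3048 and 3689 counts in Young Sham and 2681, 2695, 2270.18 and 3603 in Young Bleo. Library 20 alone lay within the sham range, and the log2 fold change of Tgfb1 was -0.37 (95% interval -0.87 to 0.13, adjusted p = 0.366).

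In Aged Bleo against Young Sham, where injury and age differ together, 1 of the 10 genes was called, Acvrl1, and it was lower. In this comparison 9.72% of all genes tested were called, and 3.14% were called lower. Acvrl1 had 69877.5, 61274, 114344 and 94719.7 normalized counts in Aged Bleo libraries 1, 2, 3 and 5, all below the Young Sham range. Its log2 fold change was -0.69 (SE 0.19, 95% interval -1.06 to -0.32, adjusted p = 0.00472). Acvrl1 and Tgfbr3 were the 2 genes with every Aged Bleo library below every Young Sham library, as were 4.94% of all genes tested. The median log2 fold change of the 10 genes was -0.29, beside 0.02 over all genes tested.

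The Aged Bleo libraries fell into a low and a high pair in several of these genes. Smad6 had 16439.7 and 17397 normalized counts in libraries 1 and 2, as low as in Young Bleo, and 39997 and 39709 in libraries 3 and 5, within the Young Sham range. Its log2 fold change against Young Sham was -0.47 (95% interval -1.02 to 0.07, adjusted p = 0.314), and it was -0.28 without library 1, -0.30 without library 2 and -0.68 without library 3 or library 5. Tgfbr3 showed the same split, with 2757 and 2416 counts in libraries 1 and 2 and 5296 and 5195 in libraries 3 and 5. Its log2 fold change was -0.68 (95% interval -1.22 to -0.13) and it was not called, at an adjusted p of 0.0989. Over 23 alternative settings that adjusted p ran from 0.0305 to 0.344, with the lowest without Aged Bleo library 3 and the highest without library 2. Acvrl1 kept its call when any single library was left out, with a log2 fold change from -0.87 (without Aged Bleo library 3) to -0.57 (without library 2).

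Bmpr2 had 9197, 15710.2, 10837 and 10490.4 normalized counts in Aged Bleo and did not split in that way, since library 2 was high and library 1 low. Its log2 fold change against Young Sham was -0.41 (95% interval -0.82 to 0.01, adjusted p = 0.23). Tgfbr1, Tgfbr2 and Smad7 lay above 0 in Aged Bleo without being called. Smad7 had 8727, 9313, 6270.46 and 7513 counts, 3 of them above the whole Young Sham range, with a log2 fold change of 0.45 (95% interval 0.11 to 0.79, adjusted p = 0.073). Tgfbr1 had 838, 1064, 635 and 818 counts, again with 3 libraries above the Young Sham range, and a log2 fold change of 0.59 (95% interval 0.08 to 1.11, adjusted p = 0.136). On the log2(FPKM + 1) scale the value of Tgfbr1 was 0.30. Tgfbr2 had 11724, 7759, 8781 and 7618 counts, with 1 library above the Young Sham range, and a log2 fold change of 0.25 (adjusted p = 0.505), or 0.094 without library 1. Eng at 49921, 40579.8, 64031 and 61725 counts, Tgfb1 at 2779, 1969, 4519 and 3399 counts and Id1 at 20740.2, 30652.5, 26386 and 20030.3 counts all overlapped Young Sham, with log2 fold changes of -0.33, -0.20 and -0.24 and adjusted p-values of 0.293, 0.719 and 0.576. The value of Eng was -0.21 and that of Tgfb1 -0.027 without library 2, that of Tgfb1 was -0.42 without library 3, and that of Id1 was -0.37 without library 2 and -0.14 without Young Sham library 24.

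**Figure D3:**
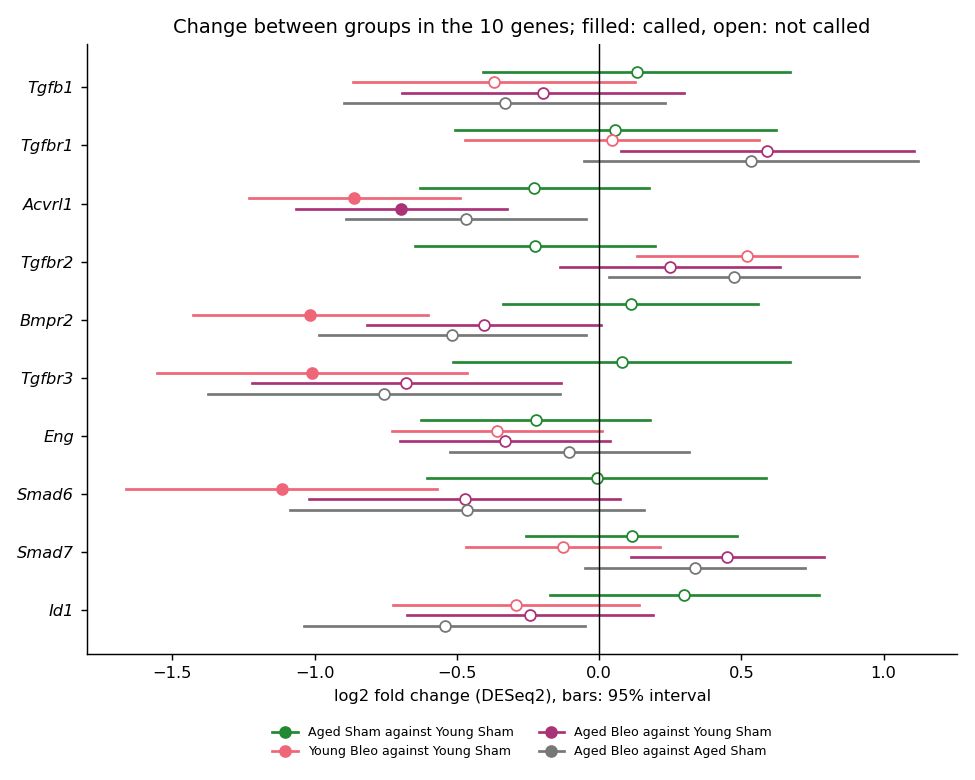
Log2 fold change (DESeq2) of the 10 genes in 4 comparisons, with 95% intervals; filled points were called and open points were not. The filled points are Acvrl1, Bmpr2, Tgfbr3 and Smad6 in Young Bleo and Acvrl1 in Aged Bleo, each against Young Sham, and all lie below 0.

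With age alone none of the 10 genes passed the threshold. In Aged Sham against Young Sham 0 of the 10 genes were called by DESeq2, 0 had an unadjusted p under 0.05 and edgeR called 0, while 3.35% of all genes tested were called by DESeq2. The log2 fold changes ran from -0.23 for Acvrl1 to 0.30 for Id1, with adjusted p-values from 0.613 to 0.997. That of Acvrl1 was -0.42 without Aged Sham library 15 and -0.11 without library 13, and that of Tgfbr2 (-0.23) was -0.065 without library 13. The 95% intervals leave room for moderate changes, such as -0.63 to 0.17 for Acvrl1 and -0.60 to 0.59 for Smad6. Acvrl1 had 98441, 107570 and 146601 normalized counts in Aged Sham, so that 2 of the 3 libraries lay below the Young Sham range and 1 above it. Smad6 had 32293.5, 39573 and 45570.4 counts and Bmpr2 had 19998, 14854 and 14733 counts, and both groups overlapped Young Sham. Tgfbr1 had 422, 779 and 534 counts and Smad7 had 5945, 7755 and 5201 counts, with library 14 the highest in both. On the FPKM scale the direction of Tgfb1, Tgfbr1, Tgfbr3, Bmpr2 and Smad7 turned from above to below 0 in this comparison. With that scaling the median over all genes shifted by -0.136 (FPKM + 0.1) or -0.121 (FPKM + 1) on the log2 scale, and these 5 differences ran from 0.06 to 0.13 on the count scale.

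In Id1, Eng and Tgfb1 a single Aged Sham library lay far from the other 2 of its group. Library 13 had the highest Id1 count of all libraries, 50169.7, against 29065 and 27646 in libraries 14 and 15. Library 13 had a depth of 23.7 mega-counts, where the lowest of all libraries was 20.9. The same library had the lowest Eng count of all libraries, 38878, against 67293 and 68347. Library 14 had the highest Tgfb1 count of all libraries, 5868, against 2552 and 3526 in libraries 13 and 15. In library 14 the summed normalized count of 6 platelet and megakaryocyte markers was 402714, against 111268 and 75244 in libraries 13 and 15 and 30987 to 55107 in Young Sham. Platelets are known to carry TGF-beta 1, and the part of these markers in the Tgfb1 value was not tested.

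Within aged mice, Aged Bleo against Aged Sham, DESeq2 called 0 of the 10 genes, beside 5.83% of all genes tested. Of the 10 genes 5 had an unadjusted p under 0.05, a share not taken over all genes, and edgeR called 0. Their median log2 fold change was -0.40, beside 0.01 over all genes tested. The lowest log2 fold changes were those of Tgfbr3 at -0.76 (95% interval -1.38 to -0.14, adjusted p = 0.143), Id1 at -0.54 (adjusted p = 0.204), Bmpr2 at -0.52 (adjusted p = 0.205) and Acvrl1 at -0.47 (adjusted p = 0.2). The value of Id1 was -0.22 without Aged Sham library 13, and that of Acvrl1 was -0.28 without Aged Sham library 15. The highest were those of Tgfbr1 at 0.53 (adjusted p = 0.327) and Tgfbr2 at 0.47 (adjusted p = 0.217), which were 0.81 without Aged Sham library 14 (0.33 on the log2(FPKM + 1) scale) and 0.31 without Aged Sham library 13. In Tgfbr2 all Aged Bleo libraries, at 7618 or more, lay above the Aged Sham counts of 4964, 7326 and 7088. In Tgfbr3 all Aged Bleo libraries, at 5296 or less, lay below the Aged Sham counts of 6183, 5363 and 8295. The share of all genes tested without overlap was not taken in this comparison. In Bmpr2 only library 2 of Aged Bleo reached the Aged Sham range. The count depended on single libraries, being 2 (Tgfbr3 and Acvrl1) without Aged Bleo library 3 (log2 fold changes of -0.94 and -0.64) and 1 (Bmpr2, -0.70) without Aged Bleo library 2.

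Whether injured ECs differ by age was taken from Aged Bleo against Young Bleo, in which DESeq2 called 0 of the 10 genes, beside 1.03% of all genes tested. Of the 10 genes 4 had an unadjusted p under 0.05, a share not taken over all genes, and edgeR called 0. Smad7 came nearest, at 5817, 5827, 4048 and 5634 normalized counts in Young Bleo and 8727, 9313, 6270.46 and 7513 in Aged Bleo. The groups did not overlap, and the log2 fold change was 0.58 (SE 0.18, 95% interval 0.22 to 0.94, adjusted p = 0.0887), with an adjusted p of 0.0477 to 0.372 over 23 alternative settings and the lowest without Aged Bleo library 3. Here too the share of all genes tested without overlap was not taken. Bmpr2 at 0.61 (95% interval 0.18 to 1.04, adjusted p = 0.181), Smad6 at 0.64 (95% interval 0.07 to 1.22, adjusted p = 0.385) and Tgfbr1 at 0.55 (95% interval 0.01 to 1.09, adjusted p = 0.461) were also above 0, and Tgfbr1 was at 0.25 on the log2(FPKM + 1) scale.

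How far the response to bleomycin in aged mice differed from that in young mice was tested as a contrast of its own. DESeq2 called 0 of the 10 genes, 0 had an unadjusted p under 0.05 and edgeR called 0, while 0.381% of the 19440 genes tested were called by DESeq2. The differences ran from -0.25 for Id1 to 0.65 for Smad6 on the log2 scale, with adjusted p-values from 0.682 to 0.989. The intervals were wide, at -0.18 to 1.48 for Smad6 and -0.17 to 0.95 for Acvrl1. The 4 calls in young mice and the smaller number in aged mice are therefore not shown to differ.

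Ratios of FPKM within a library describe the balance between the branches, without a test. The ratio of Acvrl1 to Tgfbr1 was 424 on average in Young Sham (292 to 755), 202 in Young Bleo (186 to 216), 330 in Aged Sham (212 to 421) and 167 in Aged Bleo (88.3 to 276). In both bleomycin groups all libraries lay below the Young Sham range. The ratio of the type II receptors, Tgfbr2 to Bmpr2, was 1.95 in Young Sham (1.18 to 3.09), 5.63 in Young Bleo (3.42 to 7.35), 1.53 in Aged Sham (0.933 to 1.85) and 3.10 in Aged Bleo (1.86 to 4.79). Here Young Bleo lay above Young Sham without overlap, and Aged Bleo lay above Aged Sham by a narrow gap. The ratio of the inhibitors, Smad6 to Smad7, averaged 9.58 in Young Sham with an SD of 0.41, 4.80 in Young Bleo (3.85 to 6.71) and 9.07 in Aged Sham (7.20 to 12.4). In Aged Bleo it was 2.66 and 2.63 in libraries 1 and 2, lower than in all other libraries, and 9.0 and 7.45 in libraries 3 and 5.

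The libraries low in Smad6, Tgfbr3 and Acvrl1 were also the libraries low in aerocyte markers. The marker sum was 123808 or less in Young Bleo libraries 17, 18 and 19 and Aged Bleo libraries 1 and 2, and these 5 libraries held the lowest values of Smad6 and of Tgfbr3 and the lowest of Acvrl1. Young Bleo library 20, with a marker sum of 349746, had 26791 normalized counts of Smad6 and 4816 of Tgfbr3, next above those 5 libraries in both genes. In Bmpr2 the order was different, as Aged Bleo library 2 had a marker sum of 116382 and a Bmpr2 count of 15710.2, within the sham range. All 7 aerocyte markers were called lower in Young Bleo against Young Sham by DESeq2 (5 of them by edgeR), and 2 of 7 in Aged Bleo against Young Sham. Macrophage marker sums ran the other way in the aged injured mice. They were 172700 and 106294 in libraries 1 and 2, and 43024 and 25258 in libraries 3 and 5. In Young Bleo libraries 17 to 20 they were 46730, 53794, 34156 and 17734. The summed counts of 6 artery markers were 120354, 123331, 99440 and 68189 in Young Bleo libraries 17 to 20. They were 127324, 105064, 47971 and 52568 in Aged Bleo libraries 1, 2, 3 and 5, against 31187 to 47030 in Young Sham. The 5 libraries lowest in aerocyte markers thus held the highest artery marker sums. The sums of 8 general capillary markers were 249869 to 282434 in Young Bleo against 171708 to 232241 in Young Sham, with 2 of the 8 called higher. The sums of 7 pericyte and smooth muscle markers were 2806 to 6977 in Young Bleo against 7220 to 18146 in Young Sham, with 3 of the 7 called lower (1 by edgeR). Platelet and megakaryocyte sums were 11922 to 27440 in Young Bleo against 30987 to 55107, with 0 of 6 called by either tool and 5 of 6 with an unadjusted p under 0.05. Lymphatic markers were called higher in 3 of 6 genes in Young Bleo and 1 of 6 in Aged Bleo, each against Young Sham, and of the 9 endothelial markers 2 were called higher and 2 lower in Young Bleo. Sums of 4 mesothelium markers (Msln, Upk3b, Wt1 and Lrrn4), low throughout, were 1 to 270 in Young Sham, 1141 to 3426 in Young Bleo, 727 to 3087 in Aged Sham and 153 to 1247 in Aged Bleo. Of these markers 4 of 4 were called higher in Young Bleo (4 by edgeR), 3 in Aged Sham (2 by edgeR) and 3 in Aged Bleo (2 by edgeR), each against Young Sham. Sums of 5 vein markers were 61072 to 64692 in Aged Bleo against 27775 to 43343 in Young Sham (3 of 5 called higher), and those of 7 T and B cell markers 428 to 899 in Aged Sham against 73 to 268 (1 called higher, 0 by edgeR). Sums of 7 epithelium markers overlapped between all groups. The part of cell makeup in the differences of these genes was not tested.

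**Figure D4:**
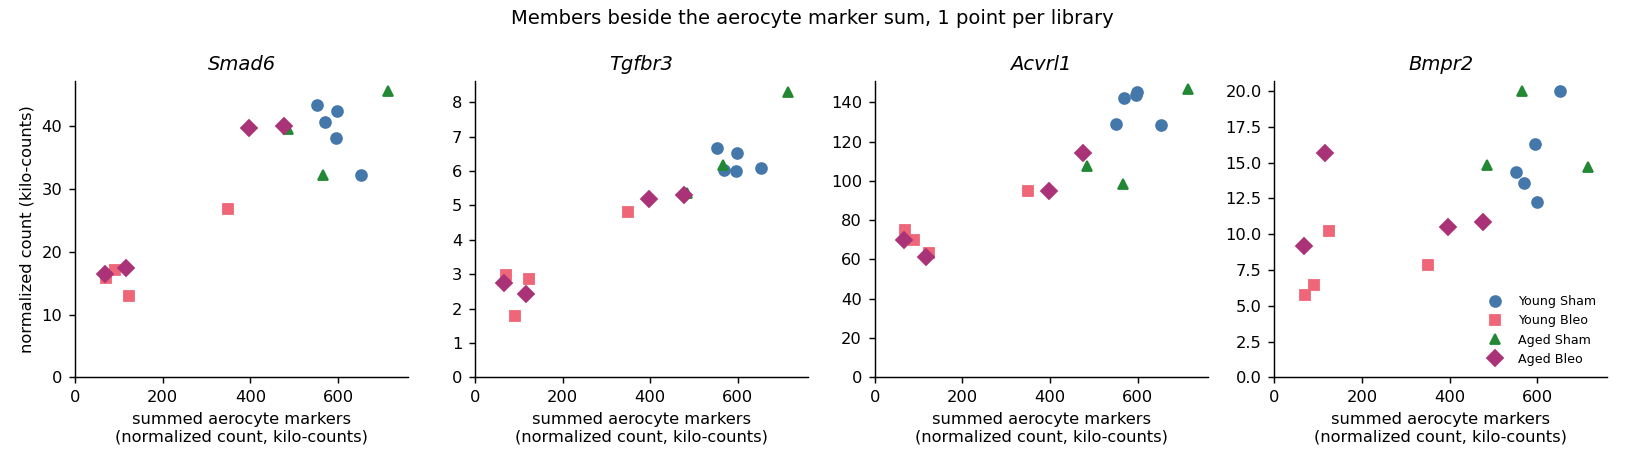
Normalized count (kilo-counts) of Smad6, Tgfbr3, Acvrl1 and Bmpr2 against the summed normalized count (kilo-counts) of 7 aerocyte markers, with 1 point per library and groups by colour and shape. The 5 libraries at or below 123808 on the marker axis are lowest in Smad6, Tgfbr3 and Acvrl1, whereas Bmpr2 spreads from 5779 to 15710.2 among them.

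Other genes of the pathway were read from a list of 59 genes in 6 roles, chosen with earlier results of these data known. In Young Bleo against Young Sham 13 were called higher and 4 lower of the 55 with an adjusted p (12 and 3 by edgeR), with a median log2 fold change of 0.18. Of all genes tested in this comparison 13.9% were called, 7.57% higher and 6.35% lower. Of 8 ligands 4 were called higher and 0 lower. Bmp6 and Bmp4, the ligands of this list with the highest mean FPKM in Young Sham (59.0 and 18.1), lay below 0 and were not called, at -0.62 (adjusted p = 0.167) and -0.74 (adjusted p = 0.0974), as was Bmp7 at -1.59 (adjusted p = 0.332). The activin subunit gene Inhba rose by 3.17 on the log2 scale (SE 0.75, adjusted p = 0.000545), although Young Bleo library 17, at 57.2 normalized counts, lay within the Young Sham range of 3.91 to 91.2. Inhbb rose by 2.26 (SE 0.51, adjusted p = 0.000265), and Bmp2 was also called higher. Tgfb2 rose by 1.65 (SE 0.28, adjusted p = 5.16e-07), from 344, 364, 367, 394 and 413 normalized counts in Young Sham to 884, 1479, 1653 and 717 in Young Bleo, without overlap. The genes of BMP9 (Gdf2) and BMP10 (Bmp10), ligands of ALK1 that are made outside the lung endothelium, were near or at 0, with at most 33.2 normalized counts of Gdf2 in a library and 0 of Bmp10 in all 16.

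Downstream of the receptors, 2 of 6 receptor-regulated and common Smad genes were called higher in Young Bleo, Smad1 and Smad5, and 0 lower. Among 13 inhibitors and regulators 2 were called higher and 2 lower, the lower ones being Fst, which encodes the activin trap follistatin (log2 fold change -2.34, SE 0.56, adjusted p = 0.000671), and Smurf2, a ubiquitin ligase that targets Smads and receptors, which fell by 50.1% (adjusted p = 0.0015). Of 7 further receptor genes 0 were called by either tool, and 4 had an unadjusted p under 0.05, a share not taken over all genes. In the latent complex and activation list 1 of 9 was called higher, Lrrc32, which encodes a cell surface anchor of latent TGF-beta, and 1 lower, Ltbp2 (log2 fold change -1.24, SE 0.38, adjusted p = 0.012). For Ltbp2 the groups overlapped, edgeR did not call it (adjusted p = 0.0526), and the call was lost without Young Sham library 22 (-0.97), Young Bleo library 17 (-0.98) or Young Bleo library 19 (-1.14). Inhba, Inhbb, Tgfb2, Fst, Smurf2, Tmem100 and Atoh8 kept their calls in this comparison in all 16 fits with 1 library left out.

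The target genes did not move as one. Of 12 target genes 4 were called higher and 1 lower in Young Bleo against Young Sham. Tmem100, an ALK1 target of lung ECs, fell by 1.41 on the log2 scale (SE 0.24, adjusted p = 7.21e-07), from 148295, 149094, 134731, 178936 and 151769 normalized counts in Young Sham to 46119.6, 43737, 60018.6 and 79115 in Young Bleo, without overlap. Atoh8, another target of ALK1 and BMP signalling, rose by 2.12 (SE 0.36, adjusted p = 6.68e-07), from 273, 291, 271, 88.9 and 173 normalized counts to 1059, 1313, 846 and 599. In Young Bleo, library 20 had the highest aerocyte marker sum (349746), the highest Tmem100 count and the lowest Atoh8 count. The part of cell makeup in these values was not tested. Id2, Gja4 and Tgfbi were the other genes called higher, and Gja4 is also in the artery marker list. Id3, a relative of Id1, was looked up after its values were known, and it was not called (log2 fold change 0.13, adjusted p = 0.736).

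**Figure D5:**
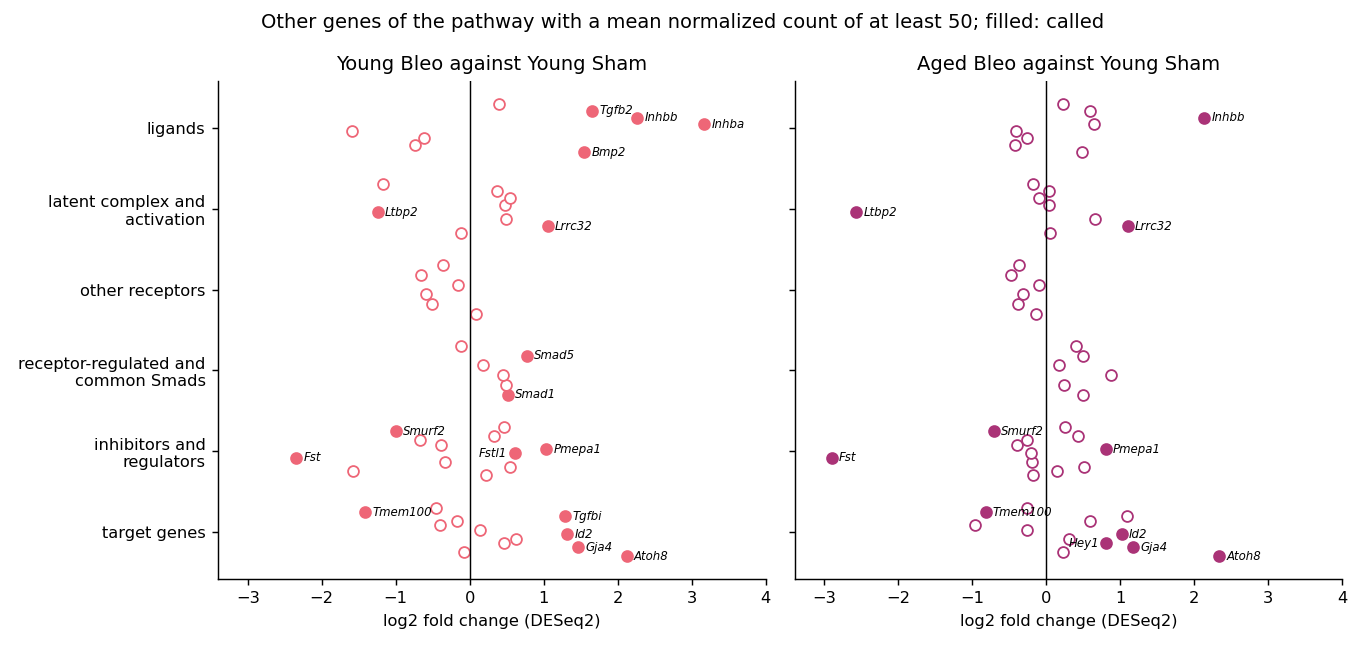
Log2 fold change (DESeq2) of the 52 listed pathway genes whose normalized counts averaged 50 or more, by role, in Young Bleo (left) and Aged Bleo (right) against Young Sham; filled and named points were called. Called ligands lie above 0 in both panels, whereas Tmem100 lies below 0 and Atoh8 above 0 among the target genes.

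In Aged Bleo against Young Sham 7 of the listed genes were called higher and 4 lower of 55 (5 and 2 by edgeR), while of all genes tested 6.58% were called higher and 3.14% lower. Atoh8 rose by 2.33 on the log2 scale (SE 0.36, adjusted p = 2.99e-08), Inhbb by 2.13, Gja4 by 1.17 and Lrrc32 by 1.10. The genes called lower were Fst (-2.90), Ltbp2 (-2.57), Tmem100 (-0.82, adjusted p = 0.0114) and Smurf2 (-0.71), of which Tmem100 and Smurf2 were not called by edgeR. Tmem100 had 50302 and 63588 normalized counts in Aged Bleo libraries 1 and 2 and 124075 and 107621 in libraries 3 and 5, the same split as Smad6. With 1 library left out, the calls of Gja4 (0.91 without library 1 and 0.99 without library 2) and Tmem100 (-0.63 and -0.70) were lost without either of Aged Bleo libraries 1 and 2, and that of Smurf2 in 10 of 16 fits (-0.57 without library 1). Atoh8, Inhbb, Lrrc32, Fst and Ltbp2 kept their calls in all 16. Sums of 7 fibroblast markers were 4161 to 7324 in Aged Bleo against 9377 to 19401 in Young Sham (5 of 7 called lower, 3 by edgeR), and those of the pericyte and smooth muscle markers 1972 to 3144 against 7220 to 18146 (7 of 7 called lower, 6 by edgeR). Their part in the lower values of Fst and Ltbp2 was not tested. Of the ligands, Tgfb2 had 851, 444, 418 and 552 counts in Aged Bleo, all above the Young Sham range, and was not called (log2 fold change 0.59, adjusted p = 0.177).

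Tgfb2 was the listed gene in which the young and the aged response were called different. Its difference of responses was -1.66 (SE 0.43, adjusted p = 0.0334), the only call of 56 listed genes by DESeq2 beside 0.381% of all genes tested, and edgeR called 0 (adjusted p = 0.336). The DESeq2 call was lost in 12 of 16 fits with 1 library left out, with differences from -1.92 to -1.41 and adjusted p-values up to 0.158 (without Aged Sham library 14). In Aged Sham, Tgfb2 already had 564, 747 and 395 normalized counts. In Aged Bleo against Young Bleo 2 of 55 were called, beside 1.03% of all genes tested, both lower, Tgfb2 (-1.06, adjusted p = 0.036) and Fstl1 (-0.81, adjusted p = 0.0152), and edgeR called 0. These calls were lost in 7 of 16 fits for Tgfb2 (adjusted p up to 0.228, without Young Bleo library 19) and in 3 of 16 for Fstl1 (adjusted p up to 0.085). Lymphatic marker sums were 70418 to 156392 in Young Bleo and 41285 to 66413 in Aged Bleo. Fibroblast marker sums were 9219 to 14993 in Young Bleo and 4161 to 7324 in Aged Bleo. The part of these markers in both calls was not tested. With age alone 3 of 55 were called, beside 3.35% of all genes tested, a share near that of the list. The calls were 2 higher, Smad9 (1.46, adjusted p = 0.0174) and Tsc22d1 (1.08, adjusted p = 0.0149), and 1 lower, Ltbp2 (-1.34, adjusted p = 0.0421), and edgeR called 0. Smad9 was low throughout, at 0.13 FPKM on average in Young Sham and 0.33 in Aged Sham, and its groups overlapped. Tsc22d1 had 34286, 95164 and 46505 normalized counts in Aged Sham libraries 13, 14 and 15. Without library 14, the one with the highest platelet and megakaryocyte marker sum (402714), its log2 fold change was 0.55 (adjusted p = 0.369) and it was not called. Of those platelet markers 4 of 6 were called higher with age (1 by edgeR), and their part in the Tsc22d1 value was not tested. The call of Smad9 was lost in 5 of 16 fits (1.26 without Aged Sham library 13) and that of Ltbp2 in 10 of 16 (-1.06 without Young Sham library 22). In Aged Bleo against Aged Sham, where 5.83% of all genes tested were called, 2 of 55 were called higher, Gja4 (1.52) and Tgif1 (0.70), and 3 lower, Tsc22d1 (-1.34), Tmem100 (-0.83) and Fkbp1a (-0.55), and edgeR called 0. Gja4 kept its call in all 16 fits with 1 library left out. Tsc22d1 was not called without Aged Sham library 14 (-0.80, adjusted p = 0.0563), and 5 of the 6 platelet markers were called lower here (2 by edgeR). Tgif1 lost its call in 4 fits, and Tmem100 and Fkbp1a each in 10.

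The genes whose pattern was most like that of each of the 10 were found by the root mean square difference of log2 normalized counts, centred on each gene, over the 16 libraries and among the 11191 genes with a mean count of at least 200. For Tgfbr3 they were Smurf2, E330009J07Rik and Pard6g, at 0.17 to 0.19 on the log2 scale, against an SD of 0.64 for Tgfbr3 itself over the libraries. Smurf2 is also on the pathway list, with 4371.71, 3774.35, 4711.17 and 8351.35 normalized counts in Young Bleo and 4542.72, 4637.52, 8541.19 and 8270.52 in Aged Bleo. It thus had the same high library in Young Bleo and the same low and high pairs in Aged Bleo as Tgfbr3. For Smad6 the nearest genes were Inpp5a, Sdpr and Rnf141, at 0.15 to 0.16, and for Acvrl1 they were Bcam, Papss1 and Cds2, at 0.11 to 0.13.

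For Tgfbr2 the nearest genes were 6430548M08Rik, Arap1 and She, at 0.11 to 0.16, and for Bmpr2 they were Dpy19l4, Ggh and Kctd12, at 0.19 to 0.22. Tgfbr1 was nearest to Fam126a, Atp11a and Zfp26, at 0.18 to 0.27, against an SD of 0.45 for Tgfbr1 itself. Smad7 was nearest to Ero1l, Atp11a and Rasa2, at 0.18 to 0.22, against an SD of 0.32 for Smad7 itself. Atp11a was thus among the 3 nearest genes of both. Eng was nearest to Fam63a, Chmp7 and Atp6v0a1, at 0.12 to 0.13. Tgfb1 was nearest to Cat, Mtmr14 and Gm4202, at 0.14 each, and Id1 to Selk, Mien1 and Sf3b5, at 0.13 to 0.14. Among the 10 genes themselves the closest pairs were Tgfb1 with Eng (0.22), Tgfbr3 with Smad6 (0.27) and Acvrl1 with Smad6 (0.28). The most distant pairs all held Tgfbr2, with Tgfbr3 (0.88), Smad6 (0.85) and Bmpr2 (0.84).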

How the data were processed

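RNA-seq was measured in 16 libraries of sorted lung ECs. Per the submitters' processing notes and the study's methods, the authors used bcl2fastq, aligned reads with STAR 2.5.2b to mm10 and counted them per gene with featureCounts of Subread, within the MAPRSeq workflow. The deposited table gives raw read counts and FPKM (counts per gene length and library total, by the authors) for each gene. Strand setting and filters are not given in the sources used here. The sources differ on the library kit, SMART-Seq cDNA with Nextera in the labels and TruSeq with poly(A) selection in the study's methods, and which was used was not settled. This bears on levels compared between genes.

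Counts were tested with DESeq2 1.42.0 (R 4.3.3) in 1 model of the 4 groups over all genes, with Wald tests and Benjamini-Hochberg adjustment. Genes were called where the adjusted p did not exceed 0.05 and the log2 fold change was 0.5 or more in either direction. No covariate entered, and 6 comparisons were made. Intervals are 95% Wald intervals. The scripts were tested on simulated data. Alternatives were the quasi-likelihood test of edgeR 4.0.16, TMM size factors, a low-count filter (at least 10 counts in at least 3 libraries), limma 3.58.1 (trend) on log2 values of the deposited FPKM plus 0.1 or 1 for genes above an FPKM minimum of 0.1 and without that minimum, a fit of only the libraries compared, and leaving out each library in turn.

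All 10 genes are reported. Of the pathway list, up to 4 called genes with the highest and 4 with the lowest log2 fold changes per comparison were named, among genes whose normalized counts averaged 50 or more, and the other names were chosen after their values were seen. The members and lists were chosen with earlier results of these data known. Promoter windows are from RefSeq. Depth ranged from 20.9 to 71.0 mega-counts, and the number of libraries limits the precision.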

Additional observations from a re-analysis of the deposited data

Results flagged for a closer look

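Among 30 group sets of these 10 genes with 4 or 5 libraries, 1 held a library that stood apart from the rest of its group. Smad7 in Young Bleo library 19 had 4048 normalized counts, against 5634 to 5827 in libraries 17, 18 and 20. The gap to the nearest library was 0.892 of the whole range of the group, above the 95% critical value of Dixon's test for 4 libraries. Chance gives such a library in about 1 in 20 groups.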

How the results depend on the processing

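No paired analysis was possible because the library numbers in the titles do not repeat between groups. The 4 calls in Young Bleo and the call of Acvrl1 in Aged Bleo, each against Young Sham, kept their direction under all alternatives and their calls in all fits with 1 library left out. With limma on log2(FPKM + 0.1) without a minimum, the calls of Tgfbr3 in Young Bleo (-1.05, adjusted p = 0.0516, range over alternatives 2.86e-05 to 0.0516) and of Acvrl1 in Aged Bleo (-0.74, adjusted p = 0.0885, range 7.79e-05 to 0.0885) were lost. In Aged Bleo against Young Sham the number called was then 0, and it was 2 with only the libraries compared. With 1 library left out it was 1 to 3, and it was 0 to 2 in Aged Bleo against Aged Sham and 0 to 1 in Aged Bleo against Young Bleo. FPKM scaling moved the median of all genes by -0.136 (Aged Sham against Young Sham) and 0.121 (Aged Bleo against Aged Sham). On that scale (FPKM + 0.1, FPKM + 1 and FPKM + 0.1 without a minimum), signs turned in Aged Sham against Young Sham for Tgfb1 (-0.082, -0.072 and -0.082), Tgfbr1 (-0.0554, -0.0337 and -0.0554), Tgfbr3 (-0.0781, -0.0688 and -0.0781), Bmpr2 (-0.0189, -0.0175 and -0.0189) and Smad7 (-0.0286, -0.027 and -0.0286). They also turned for Eng in Aged Bleo against Aged Sham (0.0441, 0.0435 and 0.0441) and Young Bleo (-0.0198, -0.0195 and -0.0198), and for Tgfbr2 in the difference of responses (0.0483, 0.0387 and 0.0483). The cause was not tested. The number of listed pathway genes called ran, with 1 library left out, from 13 to 22 in Young Bleo against Young Sham, 5 to 14 in Aged Bleo against Young Sham, 1 to 4 in Aged Sham against Young Sham, 2 to 8 in Aged Bleo against Aged Sham, 0 to 6 in Aged Bleo against Young Bleo and 0 to 1 in the difference of responses. With 1 library left out, signs turned in Aged Sham against Young Sham for Tgfb1 (-0.26 to 0.37), Tgfbr1 (-0.22 to 0.24), Tgfbr3 (-0.12 to 0.21), Eng (-0.36 to 0.00073), Bmpr2 (-0.0465 to 0.23), Smad6 (-0.13 to 0.12), Smad7 (-0.062 to 0.23) and Id1 (-0.0264 to 0.45), and for Tgfbr1 in Young Bleo against Young Sham (-0.12 to 0.19). The same held in Aged Bleo against Aged Sham for Eng (-0.33 to 0.0268) and Tgfb1 (-0.57 to 0.0583), and in Aged Bleo against Young Bleo for Acvrl1 (-0.010 to 0.29), Eng (-0.0612 to 0.14), Id1 (-0.0798 to 0.14) and Tgfb1 (-0.0499 to 0.34). In the difference of responses it held for Id1 (-0.40 to 0.0744), Tgfb1 (-0.20 to 0.43) and Tgfbr2 (-0.21 to 0.0531). None of these was called. With 3 to 5 libraries a group, wide intervals limit what can be seen.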
